A study of Mus musculus with 16 samples.

Results

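A set of 260 bins of 500 bp is described here, in which one 14 h T cell library was high and the 4 h Myc library of T cells was low. The bins were chosen by read counts alone. A bin had to hold 8 or more reads in the library labelled T14 IgG, at most 1 read in the library labelled T14 Myc and at most 2 reads in the library labelled T4 Myc. They make up 260 of the 4356269 bins on mouse chromosomes 1 to 19 (build mm8) that held a read in any of 16 libraries. The 14 h labels conflict. The sample titles and the antibody field call one library IgG and the other Myc, whereas the names under which their read lists were deposited give the opposite antibodies. The rule follows the deposited names, so the library labelled T14 IgG stands for Myc and the library labelled T14 Myc for the control. With the 2 labels exchanged the same limits picked 24 bins. Which assignment is right was not tested beyond these values, so each statement on 14 h below is about "the library labelled T14 IgG".

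The series mapped Myc by chromatin immunoprecipitation and sequencing (ChIP-seq) in mouse spleen lymphocytes, using an antibody against EGFP for Myc, an antibody against RNA polymerase II (Pol2) and control immunoglobulin (IgG). Resting T cells were cultured with 7.5 µg/ml concanavalin A (ConA) for 4 h (T4) or 14 h (T14). B cells received 25 µg/ml lipopolysaccharide (LPS) for 4 h together with the Myc inhibitor 10058-F4, or LPS alone for 4 h (B4), or were left untreated (B0). The labels name neither the mouse strain nor the genotype, the dose of the inhibitor, or the number of animals behind a library. The titles of the B4 Pol2 library and of 1 of the 3 B4 IgG libraries carry the mark wt, which the labels do not explain. If wt means wild type, these cells may lack the EGFP tag. There were 2 B4 Myc libraries, 3 B4 IgG libraries and 2 IgG libraries with 10058-F4, and 1 library of every other kind. Libraries held 1278471 to 7433203 reads on the analysed chromosomes, of which 4429042 were in T4 Myc and 3171032 in the library labelled T14 IgG. Whether the cells matched their labels was not checked, since no gene annotation of build mm8 was used, and genes and sequence at the bins were not analysed here.

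Myc is a transcription factor that pairs with Max and binds DNA at E-box motifs, mostly at promoters and enhancers that are already open. It is low in resting lymphocytes and is induced when ConA, a lectin that crosslinks surface glycoproteins, activates T cells, or when LPS activates B cells. Pol2 is the enzyme that transcribes protein-coding genes, and it piles up near active gene starts. 10058-F4 was made to block the pairing of Myc with Max. IgG precipitates DNA without a specific target, and open chromatin often yields more of it.

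Reads were counted by their midpoint, and levels are given as RPM, that is, reads scaled to the library's number of reads on chromosomes 1 to 19. Of 3830 bins with 8 or more reads in the library labelled T14 IgG, 1154 were dropped for 2 or more reads in the library labelled T14 Myc. Of the 2676 that were left, 260 (9.72%) met the T4 limit. The other 2416, with 3 or more T4 Myc reads, are called T4-positive bins and serve for comparison. What the rule used is given here as a description only. The members held 8 to 25 reads in the library labelled T14 IgG, with a median of 8. Exactly 8 reads, the least that the rule admits, were seen in 160 members, 9 reads in 43, and 12 or more in 18. T4 Myc had 0 reads in 50 members, 1 read in 89 and 2 reads in 121. The library labelled T14 Myc had 0 reads in 184 members and 1 read in 76. Most members therefore sat at the edge of the rule.

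The bins just outside each limit also carried signal in the B cell libraries. The 160 members with 8 reads in the library labelled T14 IgG averaged 0.799 and 0.645 RPM in B4 Myc libraries 1 and 2 and 3.30 RPM in B4 Pol2. The 532 bins with 7 reads averaged 0.580, 0.472 and 2.19 RPM. The 121 members with 2 T4 Myc reads averaged 1.25, 0.978 and 6.27 RPM in the same libraries, and the 218 bins with 3 T4 Myc reads averaged 1.45, 1.10 and 7.47 RPM. On the T4 side the signal in B cells was thus slightly higher just outside the limit. The 76 members with 1 read in the library labelled T14 Myc averaged 1.11, 0.815 and 4.72 RPM, and the 40 bins with 2 reads there averaged 0.940, 0.734 and 3.45 RPM.

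Members were scattered: 258 stood alone and 2 adjoined each other, and successive members on a chromosome lay a median of 4.38 Mb apart. Chromosome 11 held 32 members (12.3%), against 10.7% of the T4-positive bins and 5.18% of all covered bins. Reads of the library labelled T14 IgG came from both strands in all 260 members, with 49.8% on the plus strand.

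The 10 members with the most reads in the library labelled T14 IgG show what the selection looks like at single bins. The highest was chr3:104767501-104768000, which had 25 reads in the library labelled T14 IgG, with 0 in that labelled T14 Myc, against 2 in T4 Myc and 3 in T4 IgG. The bins on either side of it held 3 and 11 reads in the library labelled T14 IgG, against 5 and 13 reads in T4 Myc. T4 Myc reads were therefore beside this bin rather than in it. At chr15:58912001-58912500 the library labelled T14 IgG had 21 reads, with 1 in that labelled T14 Myc, against 2 in T4 Myc and 1 in T4 IgG. Its neighbours held no reads in the library labelled T14 IgG, against 8 and 1 in T4 Myc. At chr17:27548001-27548500 there were 16 reads in the library labelled T14 IgG, with 0 in that labelled T14 Myc, against 2 in T4 Myc and 0 in T4 IgG. The neighbours held 7 and 2 reads in the library labelled T14 IgG, against 9 and 3 in T4 Myc. In each of these 3 members at least 1 neighbour had as many or more T4 Myc reads than the same neighbour had in the library labelled T14 IgG, which is the shallower of the pair. Scaled for depth, with 0.5 RPM added to both sides, the log2 ratio of that library to T4 Myc over both neighbours was 0.10, -1.60 and 0.05. Over the 10 members it ran from -1.60 to 1.62, the latter at chr12:4933501-4934000.

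The remaining 7 of these 10 members held 13 to 15 reads in the library labelled T14 IgG, against 0 to 2 in T4 Myc. The lowest of the 10 on the T4 side was chr12:4933501-4934000, which had 13 reads in the library labelled T14 IgG, with 0 in that labelled T14 Myc, against 0 in T4 Myc and 0 in T4 IgG. It formed the only run of adjoining members with chr12:4933001-4933500, which had 9 reads in the library labelled T14 IgG, with 0 in that labelled T14 Myc, against 1 in T4 Myc and 4 in T4 IgG. Over the 1.5 kb centred on chr12:4933501-4934000, the library labelled T14 IgG had 24 reads and T4 Myc had 2. Across the 10 members, the same 1.5 kb held 16 to 39 reads in the library labelled T14 IgG, against 2 to 20 in T4 Myc.

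These bins were proposed as sites gained between 4 h and 14 h, and the reads beside them go against that name for the set as a whole. In the bins, the library labelled T14 IgG averaged 2.82 RPM and T4 Myc 0.287 RPM, a ratio of 9.79 that the rule itself made. In the 518 adjoining bins that were not members, which the rule did not use, the library labelled T14 IgG averaged 0.850 RPM and T4 Myc 0.719 RPM. The ratio there was 1.18 (95% interval 1.10 to 1.27). Some adjoining bins passed the T14 limits themselves, so both sets were also compared over the same kind of neighbour. Over every adjoining bin the ratio was 1.2 (1.12 to 1.29) beside the members, against 1.18 (1.16 to 1.21) beside the T4-positive bins. Over adjoining bins that belonged to neither set it was 1.03 (0.953 to 1.12), against 1.01 (0.99 to 1.04). Over every bin 2 to 4 away it was 0.941 (0.888 to 0.998), against 0.934 (0.916 to 0.952). In each of these comparisons the intervals of the 2 sets overlapped. These intervals, like all those given for ratios of reads, are exact binomial intervals for counting error only, since 1 library stood on each side and the spread between T cell cultures is unknown. The set is therefore called bins high at 14 h and low at 4 h.

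**Figure D1:**
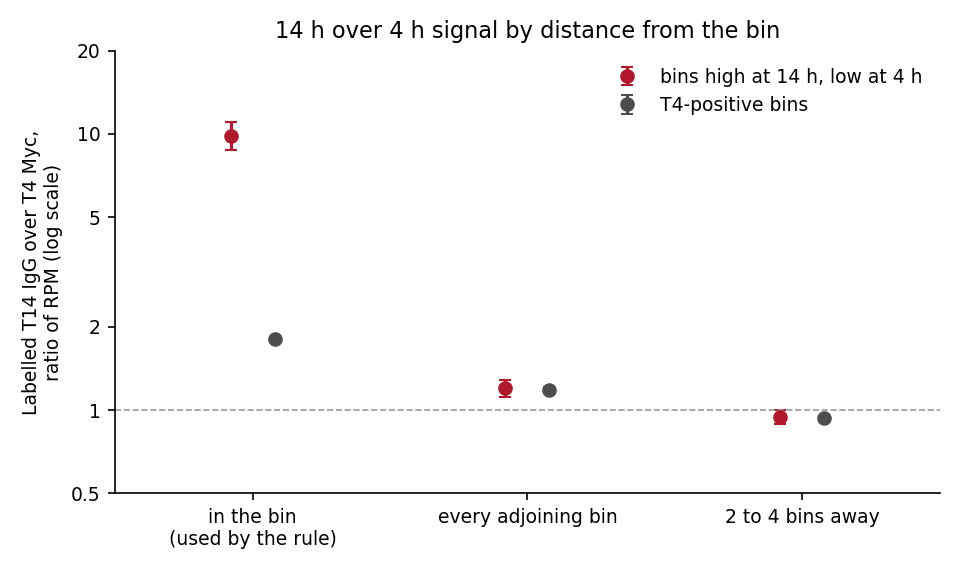
Ratio of RPM in the library labelled T14 IgG over T4 Myc (log axis) in the bins, in every adjoining bin and in every bin 2 to 4 away, for the 260 bins high at 14 h and low at 4 h (red) and the 2416 T4-positive bins (grey). Bars are 95% counting intervals. The ratio of 9.79 in the bins was set by the rule; one bin away it was 1.2, against 1.18 beside the T4-positive bins.

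T4 Myc itself was above its control beside the members. The adjoining bins averaged 0.719 RPM in T4 Myc and 0.401 RPM in T4 IgG, a ratio of 1.79 (1.6 to 2.01). Over every adjoining bin the ratio was 1.77 (1.58 to 1.99) beside the members, against 1.92 (1.86 to 1.99) beside the T4-positive bins. Over adjoining bins in neither set it was 1.6 (1.42 to 1.81), against 1.72 (1.66 to 1.78). The members' ratio was the lower one both times, with overlapping intervals. In the members, where the rule held T4 Myc down, T4 Myc averaged 0.287 RPM and T4 IgG 0.511 RPM. Taken per member, log2((T4 Myc RPM + 0.5)/(T4 IgG RPM + 0.5)) over the adjoining bins had a median of 0.44, and 59 of 260 members (22.7%) were 2-fold or more higher in T4 Myc. The same was true of 3.59% of all covered bins and of 30.8% of T4-positive bins. For the counts that follow, no share over all covered bins was taken, so they describe the members only. At least 1 adjoining bin held 3 or more T4 Myc reads at 183 members, 5 or more at 103 and 8 or more at 42. A T4-positive bin lay within 1 kb of 31 members. Without these, the ratio of the library labelled T14 IgG to T4 Myc in the adjoining bins was 1.04 (0.959 to 1.14), and that of T4 Myc to T4 IgG was 1.54 (1.36 to 1.74).

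**Figure D2:**
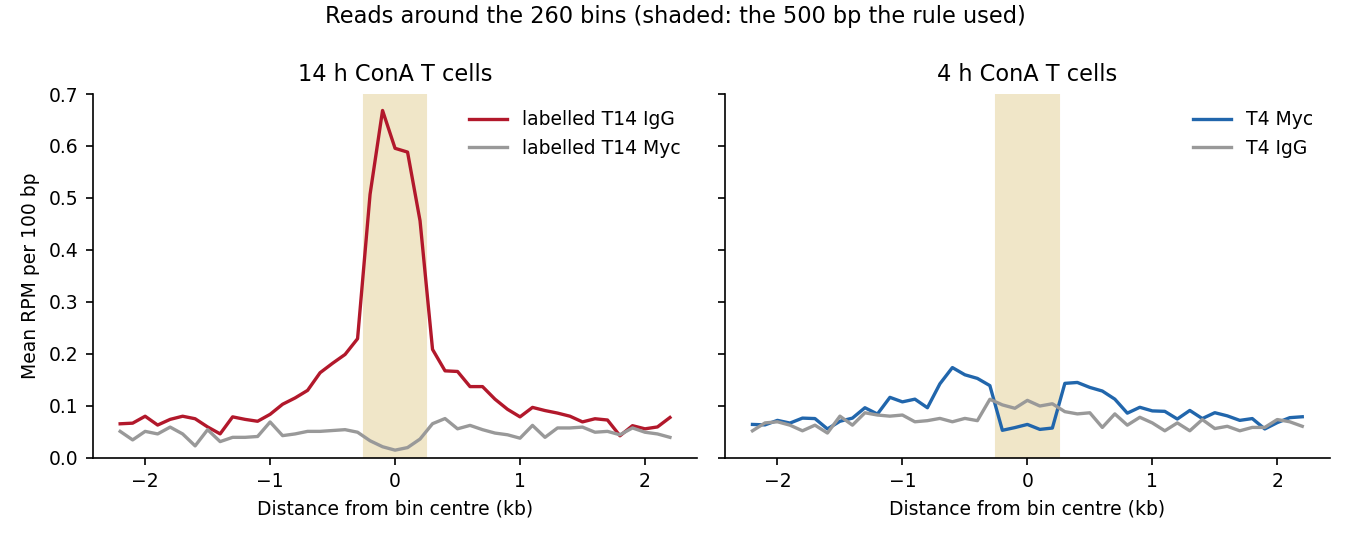
Mean RPM per 100 bp by distance from the bin centre, over the 260 bins, in the 14 h T cell libraries (left) and the 4 h T cell libraries (right); the shaded 500 bp are what the rule used. T4 Myc stood at 0.139 just left and 0.143 just right of the shaded span and at 0.0530 and 0.0573 just inside it.

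Plotted in steps of 100 bp, T4 Myc changed at the very edges of the bin. It was 0.139 RPM per 100 bp in the step just left of the bin and 0.0530 in the first step inside, and 0.143 just right of it and 0.0573 in the last step inside. T4 IgG, which the rule did not use, was 0.113 and 0.0889 in the steps just outside and 0.102 and 0.104 just inside. The library labelled T14 IgG fell off outside the bin as well, to 0.229 and 0.209 in the steps just outside, against 0.507 and 0.456 just inside. In the adjoining bins it was 2.96 times (2.63 to 3.34) the library labelled T14 Myc.

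Membership also moved with the placing of the bins. With the grid moved by 250 bp the rule picked 249 bins, and these overlapped 44 of the 260 members. With each read placed 75 bases downstream of its 5′ end, in place of its midpoint, 165 of the 260 members were picked again. A stricter form asks for at most 2 T4 Myc reads over the whole 1.5 kb of the bin and its neighbours, and 37 members met it. All 1.5 kb windows together ranged from 0 to 36 T4 Myc reads with a median of 7, and from 8 to 54 reads in the library labelled T14 IgG with a median of 13.

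The adjoining bins were 2-fold or more higher in the library labelled T14 IgG than in T4 Myc at 11 members (4.23%), against 1.48% of all covered bins and 5.42% of T4-positive bins. The median log2 difference per member was 0.03, and values ran up to 1.87. The rule capped T4 Myc at 2 reads in a bin, so the low T4 count there was selected. The part of counting error in it was not tested. A low T4 signal could also come from fewer cells that carry Myc at a site or from less Myc there per cell. These cannot be told apart in libraries from bulk cells.

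In B cells given LPS for 4 h, both Myc libraries were higher than the pooled IgG at these bins, and by less than at the T4-positive bins. The rule did not use any B cell library. B4 Myc library 1 averaged 1.03 RPM at the 260 members, against 0.483 RPM in the 3 B4 IgG libraries summed, a ratio of 2.12 (1.92 to 2.34). B4 Myc library 2 averaged 0.808 RPM, a ratio of 1.67 (1.52 to 1.84). In library 1, 5.29% of reads repeated the 5′ end of another read, against 0% in library 2 and 0.0808% in the first B4 IgG library. Such reads were kept, and their part in the ratios was not tested. At the T4-positive bins the ratios were 4.81 (4.71 to 4.92) and 2.90 (2.84 to 2.97). Among bins with only 8 or 9 reads in the library labelled T14 IgG, the ratios were 1.90 (1.69 to 2.14) and 1.45 (1.29 to 1.63) at 203 members, against 3.62 (3.5 to 3.75) and 2.27 (2.19 to 2.36) at 1146 T4-positive bins.

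The B4 IgG libraries differed among themselves at the members, and the size of the Myc excess depended on which of them it was set against. The wt-marked library averaged 0.887 RPM, while the first IgG library averaged 0.478 RPM and the repeat library 0.386 RPM. Against the wt-marked library alone, B4 Myc was 1.16 times as high (1.00 to 1.33) in library 1 and 0.910 times (0.792 to 1.05) in library 2. Against the first IgG library alone the ratios were 2.14 and 1.69, and against the repeat library alone 2.66 and 2.09. The Myc excess over IgG at these bins was thus not detectable in library 2 when set against the wt-marked control. At the T4-positive bins the ratios to the wt-marked library were 2.42 (2.34 to 2.51) and 1.46 (1.41 to 1.51).

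**Figure D3:**
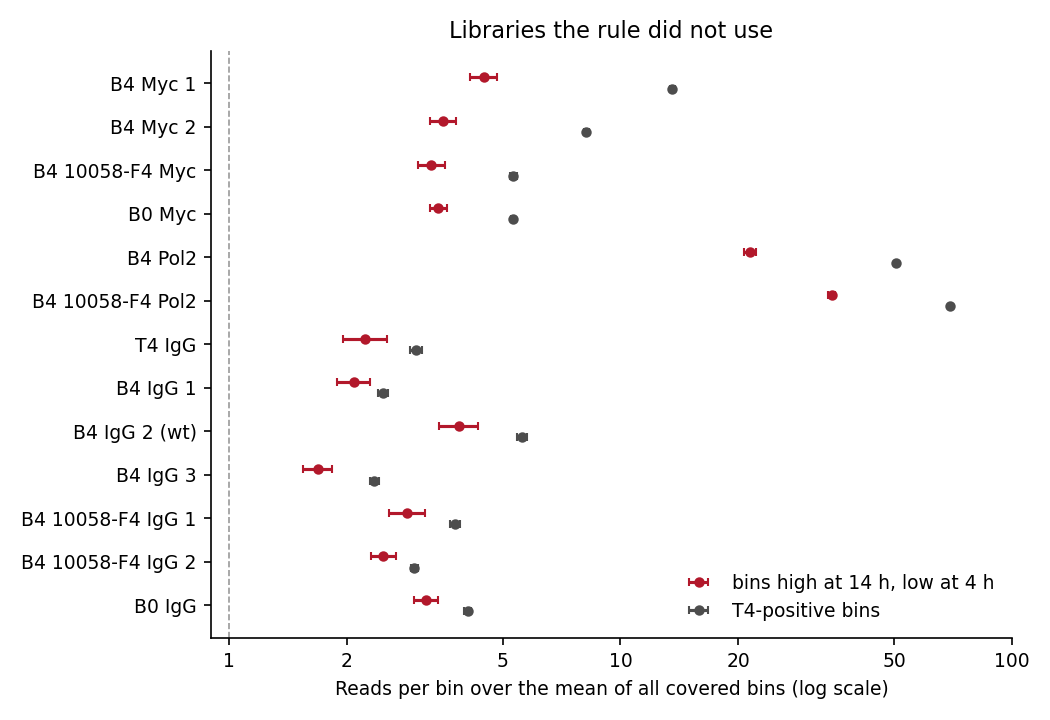
Reads per bin in each library that the rule did not use, divided by the mean of all covered bins (log axis, dashed line at 1), at the 260 bins high at 14 h and low at 4 h (red) and the 2416 T4-positive bins (grey). Bars are 95% Poisson intervals for counting error. All 7 IgG libraries lay above 1 at the members, from 1.68 to 3.87, and B4 Pol2 lay at 21.5.

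Each of the 7 IgG libraries outside the rule was itself above the mean of all covered bins at the members, by 1.68 to 3.87 times, and at the T4-positive bins by 2.35 to 5.60 times. Summed, they gave a median of 12 reads in a member, against 16 in a T4-positive bin and 5 in a covered bin. The part of this raised control in the results was not tested; each ratio to IgG above takes it into account only as far as the IgG library used carries it.

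Bin by bin the counts were small. A member held a median of 2 reads in B4 Myc library 1 (range 0 to 15) and of 2 in library 2 (0 to 15). At least 1 read was present in both at 166 members and none in either at 25, counts for which no share over covered bins was taken. Library 1 alone had 0 reads in 27.3% of members, against 68.4% of covered bins. For library 2 these shares were 18.5% and 52.2%. With 0.5 RPM added to both sides, 69 members (26.5%) were 2-fold or more higher than IgG in library 1, against 6.48% of all covered bins and 65.1% of T4-positive bins. In library 2 this was so for 42 members (16.2%), against 4.29% of covered bins and 46.4% of T4-positive bins. In both libraries at once it was so for 21 members (8.08%), against 0.478% of covered bins and 36.7% of T4-positive bins. The highest mean over both libraries was at chr8:26667001-26667500, with 10 and 9 reads in B4 Myc, against 0, 1 and 1 in the first, the wt-marked and the repeat IgG libraries. At the other end, chr7:18201001-18201500 had 0 reads in each B4 Myc library, against 2, 1 and 3 in the IgG libraries, although it held 11 B4 Pol2 reads. The 5 lowest members had 0 to 3 reads in a B4 Myc library, so their low values rest on few reads.

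The replicated test was limma with voom weights on the 2 B4 Myc and 3 B4 IgG libraries, over 4209 bins with 20 or more reads in the 5 libraries together. Only 17 of the 260 members held that many reads. None of the 17 was called at a Benjamini-Hochberg adjusted p below 0.05, while 378 of all tested bins (8.98%) were called higher in B4 Myc. The 378 depended on the settings: TMM scaling called 0 of the same bins, with 194 higher and 304 lower at an unadjusted p below 0.05, and limma-trend called 36 higher. At an unadjusted p below 0.05, 4 of the 17 were higher in B4 Myc, against 34.1% of the tested bins, and limma-trend called 0 of the 17 with 1 at an unadjusted p below 0.05. The strongest was again chr8:26667001-26667500, with a log2 difference of 3.33 (SE 1.23, limma adjusted p = 0.0600), higher than each IgG library in both Myc libraries. The median log2 difference was 0.98 over the 17 members and 1.34 over all tested bins. With TMM scaling these medians were -0.31 and 0.14, so the sign of the members' median depended on the scaling. In 1 kb windows, 4 of 84 members lay in a called window, against 2.87% of the tested windows. Leaving out B4 Myc library 2 gave 1 called member of 14 tested, below the 24.8% of all tested bins that this fit called. The member was chr18:6490501-6491000 (log2 difference 3.6, SE 1.09, limma adjusted p = 0.0126). That fit has 1 Myc library, which is assumed to vary like the IgG libraries. The bin lies outside the rule for named bins and was picked after its values were seen.

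In untreated B cells, Myc was nearly level with IgG at these bins when scaled by library size. B0 Myc averaged 0.786 RPM and B0 IgG 0.731 RPM, a ratio of 1.08 (0.986 to 1.17), against 1.3 (1.27 to 1.34) at the T4-positive bins. The members' ratio was 1.22 (1.12 to 1.33) with IgG scaled by background windows and 1.12 (1.06 to 1.19) in 1.5 kb windows. At members with 0 T4 Myc reads it was 0.924 (0.744 to 1.15). By library size, the ratio over every adjoining bin was 1.15 (1.07 to 1.24), against 1.25 (1.22 to 1.27) beside the T4-positive bins. Both B0 libraries stood more than 3 times above the mean of covered bins at the members, at 3.43 times for B0 Myc and 3.19 times for B0 IgG. Per bin, 23 members (8.85%) were 2-fold or more higher in B0 Myc, against 4.01% of covered bins and 15.6% of T4-positive bins. The member with the most B0 Myc reads, chr1:90086501-90087000, had 25 in B0 Myc and 11 in B0 IgG. It also held 4 and 4 reads in the B4 Myc libraries, against 11, 3 and 12 in the B4 IgG libraries, so its counts were high in the controls too. The next, chr7:18976001-18976500, had 19 reads in B0 Myc and 5 in B0 IgG, with 63 in B4 Pol2.

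Whether Myc over IgG differed between B4 and B0 was tested with the contrast of B4 Myc over B4 IgG against B0 Myc over B0 IgG, in limma on 7 libraries and 8482 bins. Of the 42 members tested, none was called at an adjusted p below 0.05, nor was any of the 8482 bins (0%). At an unadjusted p below 0.05, 4 of the 42 were higher in B4, against 4.4% of the tested bins, and limma-trend gave 0 at either threshold. The lone B0 libraries are assumed there to vary like the B4 ones. The 2 members with the smallest p were chr11:62273001-62273500 (log2 difference 3.92, SE 1.64, limma adjusted p = 0.992) and chr8:26667001-26667500 (3.70, SE 1.58, limma adjusted p = 0.992). The first, named here because of its p, had 4 and 3 reads in B4 Myc and 5 in B0 Myc, but 15 in B0 IgG. The second had 10 and 9 reads in B4 Myc and 10 in the deeper B0 Myc library, with 7 in B0 IgG.

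**Figure D4:**
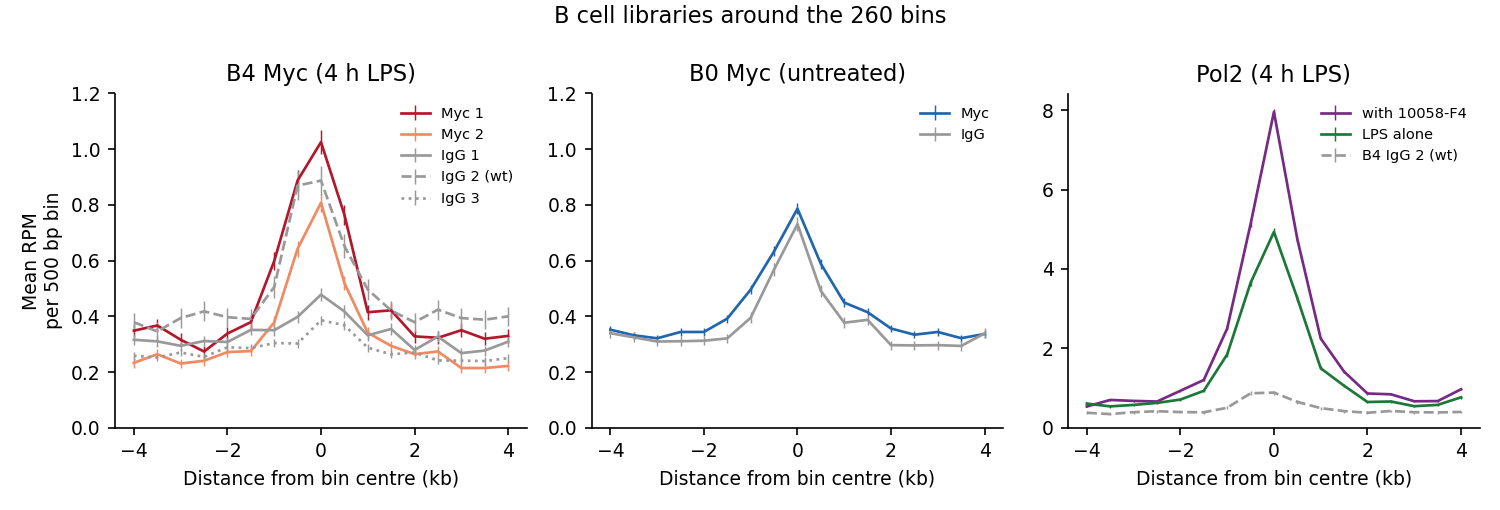
Mean RPM per 500 bp bin by distance from the centre of the 260 bins, for B4 Myc and B4 IgG libraries (left), B0 Myc and B0 IgG (middle) and Pol2 with 10058-F4 or with LPS alone (right, with its own axis); bars are counting errors (1 SE). Every library peaked at the centre, at 1.03 and 0.808 for the B4 Myc libraries, 0.887 for the wt-marked B4 IgG, 0.786 for B0 Myc and 4.93 for B4 Pol2.

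Pol2 was the B cell signal that stood out most at these bins. B4 Pol2 averaged 4.93 RPM at the members, which was 10.2 times (9.55 to 10.9) the 3 B4 IgG libraries and 5.56 times (4.93 to 6.29) the wt-marked IgG alone. At the T4-positive bins it averaged 11.6 RPM, 17.9 times (17.6 to 18.2) the IgG. Members held a median of 9 B4 Pol2 reads, with a range of 0 to 75, against a median of 26 in T4-positive bins. They were 2-fold or more above IgG at 169 members (65%), against 4.94% of covered bins and 95.2% of T4-positive bins. At least 5 B4 Pol2 reads were found in 59.2% of the members, 94.4% of T4-positive bins and 1.44% of covered bins. With 1 Pol2 library in this state, the difference has no replicate check.

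The level of Pol2 varied widely among the members. The 5 with the most reads held 41 to 75. The highest was chr1:156861001-156861500, with 75 B4 Pol2 reads and 117 and 107 in the bins beside it, so that it lay between higher neighbours. It had 4 and 4 B4 Myc reads, against 0, 5 and 1 in the IgG libraries. In the T cells it had 8 reads in the library labelled T14 IgG, against 0 reads in T4 Myc, and its neighbours held 3 and 9 reads in the library labelled T14 IgG, against 8 and 6 in T4 Myc. In all, B4 Pol2 was higher in the bin than in either neighbour at 98 members, while a neighbour was higher at 122 and neither held at 40. No share over covered or T4-positive bins was taken for these counts, so they describe the members only. Averaged over all members, B4 Pol2 was highest in the bin.

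At the other end, 54 members (20.8%) held no B4 Pol2 read, as did 1.74% of T4-positive bins and 72.9% of covered bins. One read is worth 0.421 RPM in that library, and a count of 0 in 1 bin allows up to 1.26 RPM (3 reads). With 10058-F4, where the Pol2 library was deeper, the same 54 members held a median of 1 Pol2 read and at most 11, and 18 of them had 0 in both Pol2 libraries. At these 54 members the B4 Myc ratios to IgG were 1.22 (0.842 to 1.74) and 1.02 (0.719 to 1.43), and T4 Myc over T4 IgG in the adjoining bins was 1.04 (0.741 to 1.48). At the 206 members with a Pol2 read these values were 2.24 (2.02 to 2.48), 1.76 (1.59 to 1.94) and 1.91 (1.69 to 2.16). One of the 54 was chr1:163147001-163147500, which had 9 reads in the library labelled T14 IgG, with 1 in that labelled T14 Myc, against 0 in T4 Myc and 0 in T4 IgG. It had 0 reads in each B4 Myc library, against 1, 0 and 1 in the B4 IgG libraries.

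Across the members, Myc over IgG was higher where Pol2 was higher, in B4 and beside the bins in T4. Members were ranked by B4 Pol2 reads and divided into 4 groups of 65, with ties broken by position; the groups held 0 to 1, 1 to 9, 9 to 19 and 19 to 75 reads. B4 Myc library 1 over IgG was 1.2, 1.85, 2.25 and 2.61 from the lowest group to the highest. Library 2 over IgG was 1.00, 1.26, 1.75 and 2.19. B0 Myc over B0 IgG was 0.966, 1.10, 1.05 and 1.13, and the interval of each included 1. T4 Myc over T4 IgG in the adjoining bins was 1.12, 1.54, 2.21 and 2.01. The mean number of reads in the library labelled T14 IgG was also higher with Pol2, at 8.15, 8.42, 9.17 and 9.97, and the pooled B4 IgG was 0.283, 0.435, 0.587 and 0.628 RPM. Their part in the pattern was not tested.

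**Figure D5:**
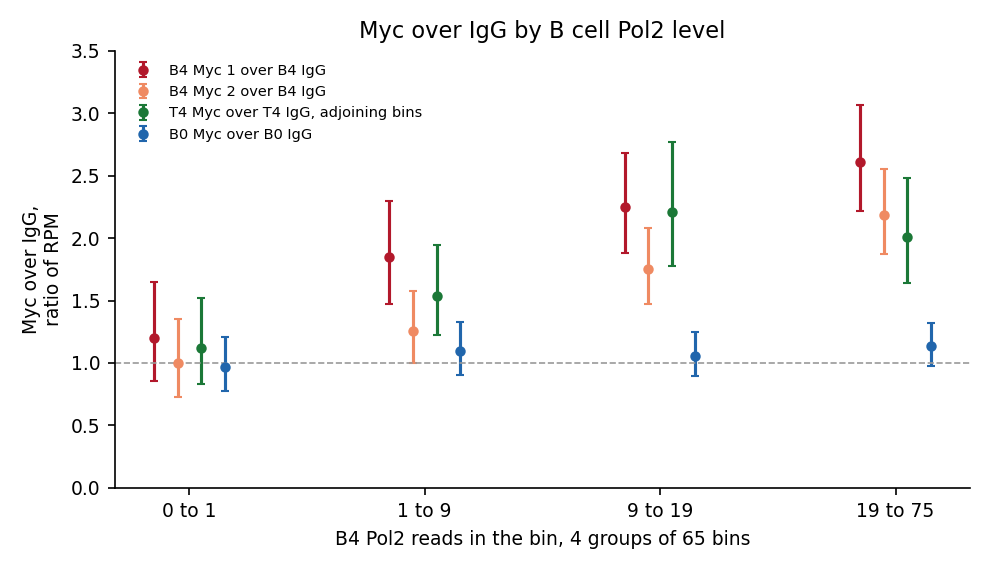
Ratio of RPM of Myc over IgG in 4 groups of 65 members ranked by B4 Pol2 reads, for both B4 Myc libraries, T4 Myc in the adjoining bins and B0 Myc; bars are 95% counting intervals and the dashed line marks equality. B4 Myc library 1 ran from 1.2 in the lowest group to 2.61 in the highest, and B0 Myc stayed between 0.966 and 1.13.

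As a description over the 260 members, which share libraries and their depth, the Spearman correlation of B4 Pol2 reads was 0.48 with B4 Myc library 1, 0.61 with library 2 and 0.52 with B0 Myc. It was 0.40 with B0 IgG, so the control followed Pol2 as well. Reads of the library labelled T14 IgG correlated with B4 Pol2 at 0.48, although they spanned only 8 to 25. The 2 B4 Myc libraries correlated with each other at 0.39, and the 2 Pol2 libraries at 0.90.

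With 10058-F4 added to LPS, Pol2 at the members averaged 7.96 RPM, against 4.93 RPM with LPS alone, a ratio of 1.61 (1.55 to 1.68). At the T4-positive bins these were 16 and 11.6 RPM, a ratio of 1.38 (1.36 to 1.39). Each state had 1 Pol2 library, of 5130471 reads with the inhibitor and 2377368 with LPS alone, and that of LPS alone carries the wt mark, so treatment, cell origin and library cannot be told apart. Myc with 10058-F4 averaged 0.755 RPM at the members, against 0.594 RPM in the 2 IgG libraries with 10058-F4, a ratio of 1.27 (1.15 to 1.40). That was below the 2.12 and 1.67 with LPS alone against the pooled IgG and above the 1.16 and 0.910 against the wt-marked IgG. With pooled IgG on both sides, the members' Myc ratio with the inhibitor was thus the lower one. The second comparison sets a pooled control beside a single IgG library. The 2 IgG libraries with 10058-F4 averaged 0.655 and 0.569 RPM at the members and were not used singly. How far the order depends on the control was not tested, and Myc with the inhibitor had 1 library.

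The members that met different forms of the rule differed in their B cell ratios. The 37 members with at most 2 T4 Myc reads over 1.5 kb had B4 Myc ratios of 1.61 (1.08 to 2.38) and 1.08 (0.711 to 1.61) and a Pol2 ratio of 3.24 (2.37 to 4.40). No B4 Pol2 read was present in 25 of these 37, as in 72.9% of covered bins. At least 5 were present in 4 of the 37, against 1.44% of covered bins. One of the 37 was chr12:4933501-4934000, with 19 B4 Pol2 reads, 4 and 1 B4 Myc reads, and 4, 2 and 2 reads in the B4 IgG libraries. The 44 members overlapped by a bin picked on the moved grid had higher B4 Myc ratios of 3.0 (2.37 to 3.77) and 1.98 (1.56 to 2.51) and a Pol2 ratio of 14.1 (12 to 16.7). Their adjoining bins had a ratio of the library labelled T14 IgG to T4 Myc of 1.3 (1.07 to 1.56). The 18 members with 12 or more reads in the library labelled T14 IgG had B4 Myc ratios of 4.23 (3.13 to 5.71) and 2.54 (1.85 to 3.48). Their Pol2 ratio was 18.7 (14.9 to 23.7). These lay near the ratios of all T4-positive bins, which were not matched to the 18 for reads in that library. T4 Myc over T4 IgG beside the 18 was 2.72 (1.82 to 4.20). B0 Myc over B0 IgG lay between 0.924 and 1.22 under every alternative run.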

How the data were processed

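Per the labels, ChIP-seq libraries of mouse spleen B and T cells were made with antibodies against EGFP (for Myc) or Pol2, or with IgG. What the authors deposited is the position, length and strand of every aligned read, with no counts or peak calls. The submitters' processing notes name CASAVA 1.0, Bowtie 0.12.7 and genome build mm8; settings are not given in the sources used here. It is not stated if positions start at 0 or at 1, so a read near an edge may fall in the next bin. Read length was 25 bases in T cells, 24 to 30 in the earlier pair of B4 Myc and IgG, and 45 elsewhere.

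Read midpoints were counted in 500 bp bins on chromosomes 1 to 19 (Python 3.11.15, numpy 2.4.6). Library sizes are reads on those chromosomes, 1278471 to 7433203 per library. Ratios are RPM of ChIP over RPM of IgG, with all IgG libraries of that cell state summed. Their 95% intervals are exact conditional binomial intervals (scipy 1.17.1) and cover counting error only. Per-bin ratios add 0.5 RPM to both sides, and 2-fold or more was called higher. Replicated tests used limma 3.58.1 (R 4.3.3) with voom weights on bins whose mean over the libraries was 4 or more reads, Benjamini-Hochberg adjusted over all bins tested at 0.05. Nothing says whether replicate libraries stem from different animals; p-values thus reflect a spread between libraries that may be technical. Libraries called replicates differed beyond sampling noise in 1 Mb windows and were counted separately.

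The members and lists were chosen with earlier results of these data known. The bins named are the 10 with most reads in the library labelled T14 IgG, the 5 highest and 5 lowest by B4 Myc over IgG, the 5 with most and fewest B4 Pol2 reads, the 5 with most B0 Myc reads, the runs of adjoining members, and any member past the limma threshold. Not all of them are printed.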

Additional observations from a re-analysis of the deposited data

How the results depend on the processing

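The number of members was 18 with a limit of 12 or more reads in the library labelled T14 IgG and 50 with 0 T4 Myc reads, and lay within 1.5 times of 260 under the other 3 alternatives. With 12 or more such reads, the ratios to IgG were 4.23 and 2.54 for B4 Myc libraries 1 and 2, 18.7 for B4 Pol2 and 2.72 for T4 Myc beside the bins. With 0 T4 Myc reads they were 1.70 and 1.29 for B4 Myc, 7.72 for B4 Pol2 and 0.924 for B0 Myc, and the library labelled T14 IgG over T4 Myc beside the bins was 1.28. In 1.5 kb windows B4 Myc library 2 was at 1.5 and B4 Pol2 at 8.99. Scaling IgG by background windows gave 15.8 for B4 Pol2 and 1.22 for B0 Myc. Leaving out 1 B4 IgG library at a time gave 1.74 to 2.43 and 1.37 to 1.91 for the B4 Myc libraries and 8.35 to 11.7 for B4 Pol2. Against the wt-marked B4 IgG library alone the ratios were 1.16, 0.910 (the direction turned) and 5.56, and against the repeat IgG library alone 2.66, 2.09 and 12.8; the cause was not tested.

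In bins 2 to 4 away, T4 Myc over T4 IgG was 1.23, and the library labelled T14 IgG over T4 Myc was 0.941, the opposite direction to the adjoining bins. This last ratio was 1.27 with reads moved 75 bases from their 5′ ends, 1.04 without members within 1 kb of a T4-positive bin, 1.3 at members overlapped on the moved grid and 1.04 at members with 0 B4 Pol2 reads. T4 Myc over T4 IgG beside the bins was 1.54, 1.58 and 1.04 at the last 3 of these sets. Members overlapped on the moved grid gave 3.0 and 1.98 for B4 Myc and 14.1 for B4 Pol2. Members with at most 2 T4 Myc reads in 1.5 kb gave 1.61, 1.08 and 3.24, and members with 0 Pol2 reads gave 1.22 and 1.02 for B4 Myc and 0.969 for B0 Myc. These sets, the single IgG libraries, the adjoining bins taken alike for both sets and the ratio of the library labelled T14 IgG to T4 Myc were chosen after seeing the data.

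limma called 0 members higher in B4 Myc. It called 4 of 84 members in 1 kb windows (2.87% of all windows were called), all found after seeing their values, in windows starting at 53143001 on chromosome 11, 30308001 on chromosome 16, and 6490001 and 38061001 on chromosome 18. When the title pairs entered as a replicate block, without the wt-marked library, limma called 1 of 28, chr8:26667001-26667500 (log2 difference 4.12, SE 0.807, limma adjusted p = 1.6e-05), against 0 without the block on the same libraries. The pairs rest on a mark in the titles, and deviations of the paired libraries correlated at 0.19 over 4209 bins. The block called 1215 of 6880 tested bins higher and 42 lower, against 14 and 0 without it. Leaving out 1 library at a time gave 0 to 1 members, and 3 to 1073 bins higher in all, against 378 with every library. TMM scaling called 0 bins and limma-trend 36. The contrast of B4 with B0 gave 0 members under every alternative run. Depth limits single bins: 1 read is worth 0.135 to 0.782 RPM, so a member with 8 reads in the library labelled T14 IgG can differ from one with 7 by counting error alone.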

Other observations

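Of the 260 members, 206 had at least 1 B4 Pol2 read and 54 had none, as had 72.9% of covered bins. Of the 54, 25 were among the 37 that met the stricter T4 limit over 1.5 kb. The member with the most reads in the library labelled T14 IgG that had at most 2 T4 Myc reads over 1.5 kb and no B4 Pol2 read was chr16:95303001-95303500. It had 10 reads in the library labelled T14 IgG, with 0 in that labelled T14 Myc, against 1 in T4 Myc and 0 in T4 IgG. It had 1 and 0 reads in the B4 Myc libraries, 5 in B0 Myc and 1 in B0 IgG, and 0 in Pol2 with 10058-F4. Its counterpart with Pol2 was chr12:4933501-4934000, named above. That bin had 13 reads in the library labelled T14 IgG, against 0 in T4 Myc, and 19 reads in B4 Pol2. Both were picked after their values were seen.

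The 42 T4-positive bins with 0 B4 Pol2 reads had B4 Myc ratios to IgG of 4.60 (3.78 to 5.59) in library 1 and 0.932 (0.686 to 1.25) in library 2. The 54 members with 0 Pol2 reads had 1.22 and 1.02 there. The 2 B4 Myc libraries thus stood apart from each other at these T4-positive bins but not at these members. Library 1 held reads that repeat a 5′ end (5.29%) and library 2 held none. Reads were also 24 to 30 bases long in library 1 and 45 in library 2. The T cell libraries that chose these bins had reads of 25 bases, and the B4 Pol2 library had reads of 45. The part of either difference was not tested, and within these 2 libraries they cannot be told apart. Of the 260 members, 21 were in the top 0.1% of covered bins by summed IgG reads.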
